A study of Mus musculus with 847 samples.

Results

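The mRNA of 10 genes that astrocytes use to keep the brain's extracellular fluid stable was followed across 15 brain regions and 7 ages of the mouse. The genes were chosen by name as 10 rows of the deposited count table: the glutamate transporters Slc1a2 and Slc1a3, the glutamine synthetase gene Glul, the water channel gene Aqp4, the membrane protein gene Mlc1, the connexin genes Gja1 and Gjb6, the bicarbonate transporter gene Slc4a4, and the metabolic enzyme genes Aldoc and Aldh1l1. All 10 were among the 21076 genes of the table. The study sequenced RNA from whole dissected tissue of 59 C57BL/6JN mice, 25 females and 34 males, with 1 library for each region of a mouse and 847 libraries in all. Mice of 3, 12, 15 and 18 months comprised 5 females and 5 males each, and those of 21 months 5 females and 6 males. The ages of 26 and 28 months were represented by males alone, 5 and 3 mice. The labels name no transgene and no treatment, and the same animals supplied the 15 regions, 37 of them with every region present.

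Astrocytes are the glial cells that enwrap synapses and line brain capillaries. Through GLT-1 (Slc1a2) and GLAST (Slc1a3) they clear glutamate released by neurons, and glutamine synthetase (Glul) converts it to glutamine, which is passed back to neurons. Their end feet at vessels hold the water channel aquaporin 4 (Aqp4) and the membrane protein Mlc1, loss of which causes a leukodystrophy with cysts in people. Connexin 43 (Gja1) and connexin 30 (Gjb6) form the gap junctions that couple astrocytes, NBCe1 (Slc4a4) carries sodium and bicarbonate, aldolase C (Aldoc) is a glycolytic enzyme that Purkinje cells of the cerebellum also make, and Aldh1l1 is an enzyme of folate metabolism. Bergmann glia, the astrocytes of the cerebellar cortex, are known for their high GLAST content.

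Totals ran from 481444 to 26756735 reads per library with a median of 6716032. Levels are given as CPM, the read count relative to the library total after TMM scaling, which adjusts for differences in composition between libraries. The lowest count of any of the 10 genes in any library was 14 reads (Aldh1l1 in a caudate putamen library). Every gene passed the low-count filter in every region. Counting noise and the spread between mice were not separated, and 10 libraries had totals under 1e6 reads. Because the libraries come from whole tissue, fewer astrocytes and less RNA per astrocyte cannot be told apart. Most region markers were highest in the region that bears their name, with exceptions that touch the results below. Corpus callosum libraries held RNA of neighbouring tissue: the striatal marker Drd2 had a median of 346 CPM there against 574 CPM in caudate putamen, and the 8 genes of choroid plexus epithelium summed to between 6.26 and 18374 CPM. The libraries labelled choroid plexus held much brain tissue, with the 8 neuron genes at a median of 6437 CPM against 11122 CPM in motor cortex. By their profiles 12 libraries were nearest to a region other than their own, 8 of them from posterior hippocampus, and 1 entorhinal cortex library (mouse 52) resembled medulla. A further 4 libraries, from entorhinal cortex of mice 7, 15 and 23 and pons of mouse 1, were low in 97 other genes, and in them Gja1 lay between 60.8 and 71.6 CPM and Slc1a3 between 76.4 and 256 CPM. Results were also computed without these 16 libraries.

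For 9 of the 10 genes, RefSeq for build GRCm38.p6 gave 11 windows of the 250 bases before an annotated start. That start need not be the first of the gene, and some windows, including those of Slc1a2 and Aldh1l1, lie inside the gene. Those of Slc1a2, Slc1a3 and Glul are shown because these genes act in turn on the same glutamate, and cerebellum holds the highest mean of Slc1a3 and the lowest means of the other two. Letters were searched on both strands, and capitals mark the GC box, which reads GGGCGG, and the TATA box, which was searched as TATAAA. The Slc1a2 window lies at chr2:102706188-102706437 on the plus strand, that of Slc1a3 at chr15:8710808-8711057 on the minus strand, and that of Glul at chr1:153899679-153899928 on the plus strand. The annotated gene Slc1a2 begins at chr2:102658659, so its window precedes an internal start.
Slc1a2: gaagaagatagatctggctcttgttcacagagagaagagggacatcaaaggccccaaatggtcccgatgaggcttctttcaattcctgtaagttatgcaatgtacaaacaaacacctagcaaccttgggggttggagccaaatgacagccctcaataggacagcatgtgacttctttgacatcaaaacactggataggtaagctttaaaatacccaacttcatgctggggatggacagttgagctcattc
Slc1a3: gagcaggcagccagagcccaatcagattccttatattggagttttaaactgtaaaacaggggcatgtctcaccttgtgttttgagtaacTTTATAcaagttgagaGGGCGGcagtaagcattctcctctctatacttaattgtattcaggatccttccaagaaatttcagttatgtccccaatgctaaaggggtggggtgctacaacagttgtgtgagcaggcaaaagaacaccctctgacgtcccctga
Glul: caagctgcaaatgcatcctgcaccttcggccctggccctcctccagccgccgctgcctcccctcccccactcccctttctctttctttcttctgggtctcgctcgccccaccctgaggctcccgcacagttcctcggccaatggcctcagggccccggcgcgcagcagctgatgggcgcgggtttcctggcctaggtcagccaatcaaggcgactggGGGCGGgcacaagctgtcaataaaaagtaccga
GGGCGG was present in 5 of the 11 windows and in 32.7% of 32851 windows of the same length genome-wide, and CCAAT in 5 of 11 against 33.8%. TATAAA was found in 1 window, that of Slc1a3, against 12.4% of all windows, and the window of Slc1a2 held none of the motifs searched. The bases before the first annotated start of Slc1a2 were not searched. The letters TTGGCA, which can share bases with CCAAT read on the other strand, occurred in 1 window, that of Aldoc, against 12.3%, and AACAAT in none against 9.42%. GC content was 44.8% in the windows of Slc1a2 and Slc1a3 and 64.8% in that of Glul, with a median of 52.4% over all windows. The annotation of GRCm38 places the gene Teddm2 on the strand opposite to Glul with overlapping exons. The libraries are unstranded, so their reads cannot be separated, and the count given to Teddm2 was 5.31% ± 0.437 of that of Glul (SD, n = 847 libraries).

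The region of the brain accounted for most of the variation in each gene. Region explained between 65.4% (Aldh1l1) and 94.0% (Slc1a2) of the variance of log2 CPM, whereas age within region explained between 0.174% (Slc1a2) and 2.02% (Mlc1). Sex within region explained at most 2.03% (Gja1), and within a region the SD between libraries was 0.16 to 0.28 log2 units. Per kilobase of exon, the median of the region means was 358 CPM for Aldoc, 150 for Glul, 75.3 for Slc1a2, 72.7 for Mlc1 and 69.1 for Slc1a3. The remaining genes were lower on this scale, Gjb6 at 35.9, Slc4a4 at 29.2, Aqp4 at 26.0, Gja1 at 22.8 and Aldh1l1 at 12.2 CPM per kilobase.

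**Figure D1:**
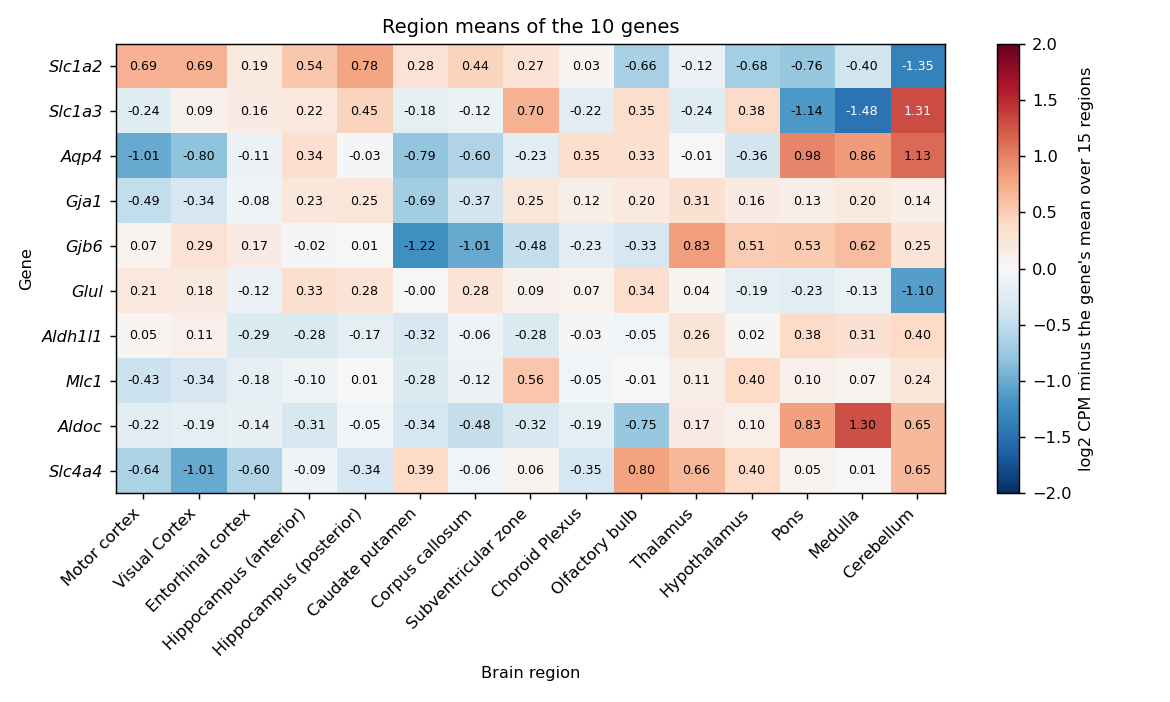
Mean log2 CPM of each gene (rows) in each region (columns), relative to the gene's mean over the 15 regions; red is higher and blue lower, and the printed number is the difference in log2 units. The cerebellum column holds both the highest value of Slc1a3 (1.31) and the lowest value of Slc1a2 (-1.35).

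The 2 glutamate transporters were distributed differently. Slc1a2 had its highest mean in posterior hippocampus, 1471 ± 133 CPM (SD, n = 58, library range 1184 to 1761), and was close to it in visual cortex (1385 ± 151, n = 56) and motor cortex (1380 ± 87.5, n = 59). It was lowest in cerebellum, 337 ± 29.7 CPM (n = 58, range 275 to 422), 4.38-fold below posterior hippocampus by geometric mean. No cerebellar library reached the lowest library of those 3 telencephalic regions. Pons (511 ± 68.9, n = 51), hypothalamus (536 ± 64.2, n = 55) and olfactory bulb (543 ± 46.0, n = 58) stood next above cerebellum. In the order of the 15 means, 5 of the 14 steps between neighbours were larger than the larger of both SDs: those below motor cortex, corpus callosum, thalamus, medulla and pons. The other neighbours did not differ beyond their spread.

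Slc1a3 had its maximum where Slc1a2 had its minimum. In cerebellum it reached 1374 ± 134 CPM (n = 58, range 1064 to 1829), followed by the subventricular zone, a germinal layer beside the lateral ventricle, with 908 ± 132 CPM (n = 55). The lowest means were those of medulla, 200 ± 24.9 CPM (n = 58, range 160 to 291), and pons, 257 ± 59.5 CPM (n = 51). Cerebellum lay 6.92-fold above medulla, the widest span of the 10 genes, and the 2 ranges were far apart. The steps below cerebellum, subventricular zone, visual cortex and thalamus were larger than the spread, and the other 10 were not. Thalamus varied more than most regions, from 275 to 789 CPM (n = 59).

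**Figure D2:**
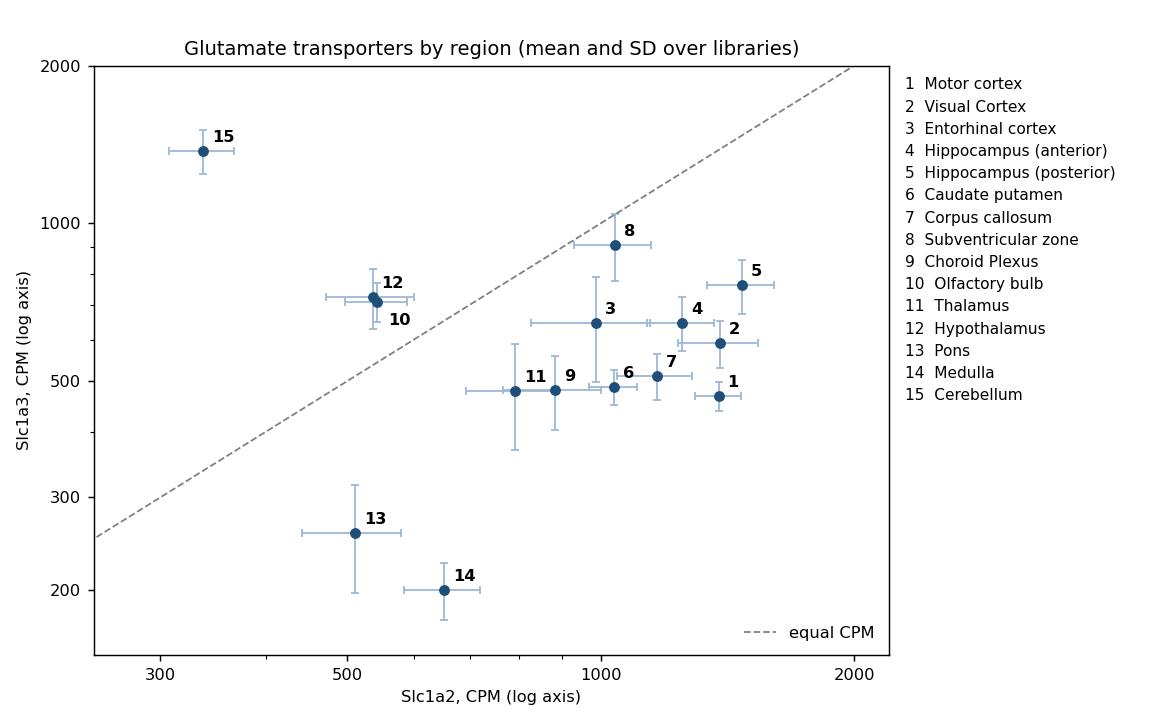
Mean CPM of Slc1a2 (horizontal, log axis) and Slc1a3 (vertical, log axis) in 15 regions, numbered as in the key, with bars of 1 SD over libraries; the dashed line marks equal CPM. Cerebellum, hypothalamus and olfactory bulb lie above the line and the other 12 regions below it.

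The log2 ratio of Slc1a3 to Slc1a2 reads within a library placed the regions in order without reference to any scaling. It averaged -1.71 ± 0.26 in medulla (n = 58), -1.56 ± 0.10 in motor cortex (n = 59) and 2.03 ± 0.24 in cerebellum (n = 58). Olfactory bulb (0.38 ± 0.15, n = 58) and hypothalamus (0.43 ± 0.35, n = 55) were the other regions with a mean above 0. The lowest cerebellar library, at 1.33, was above the highest library of hypothalamus, at 0.94. Gene lengths enter this ratio equally in every region, so the order of the regions does not depend on them.

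Glul, whose product takes up the ammonia and glutamate that the transporters deliver, followed Slc1a2 more than Slc1a3. Its means lay between 405 ± 61.9 CPM in pons (n = 51) and 597 ± 50.0 CPM in olfactory bulb (n = 58) in 14 regions. Cerebellum stood below them at 221 ± 27.8 CPM (n = 58, range 175 to 330), 2.71-fold under olfactory bulb. The step to cerebellum was the only one of 14 that was larger than the spread. Across the 15 region means of log2 CPM, Pearson's r between Slc1a2 and Glul was 0.75, the highest of the 45 pairs of genes. Olfactory bulb departed from this, with the highest mean of Glul but rank 12 of 15 for Slc1a2 (543 CPM).

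Aqp4, the end-foot water channel, had its highest means in cerebellum and hindbrain. Cerebellum (360 ± 41.3 CPM, n = 58), pons (327 ± 63.3, n = 51) and medulla (305 ± 76.4, n = 58) had the highest means. Choroid plexus (212 ± 41.1, n = 57), anterior hippocampus (209 ± 32.0, n = 57) and olfactory bulb (206 ± 21.5, n = 58) followed after a step larger than the spread. Motor cortex was lowest at 81.1 ± 7.33 CPM (n = 59, range 64.9 to 98.0), 4.41-fold below cerebellum, whose lowest library had 271 CPM. Over the 15 region means r between Aqp4 and Slc1a2 was -0.71, the lowest of the 45 pairs, although anterior hippocampus was high in both and hypothalamus low in both. Mlc1, which shares the end feet with Aqp4, ranged less: from 152 ± 8.61 CPM in motor cortex (n = 59) to 304 ± 34.1 CPM in the subventricular zone (n = 55). No step between neighbours in its order exceeded the spread.

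The connexins differed in range. Gja1 spanned 2.0-fold, from 133 ± 28.0 CPM in caudate putamen (n = 58) to 262 ± 22.5 CPM in thalamus (n = 59), and no neighbouring regions differed beyond their spread. Gjb6 spanned 4.14-fold between the same 2 regions, from 40.7 ± 13.2 CPM (n = 58) to 163 ± 20.0 CPM (n = 59). Corpus callosum was close to caudate putamen for Gjb6, 45.6 ± 8.30 CPM (n = 57, range 31.1 to 74.2), and below the subventricular zone (66.4 ± 13.0, n = 55) by more than the spread. The highest Gjb6 library of corpus callosum did not reach the lowest of thalamus, at 117 CPM.

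Slc4a4 and the metabolic enzymes had orders of their own. Slc4a4 was highest in olfactory bulb (541 ± 30.6 CPM, n = 58), thalamus (494 ± 42.9, n = 59) and cerebellum (491 ± 54.0, n = 58), and lowest in visual cortex (155 ± 22.1, n = 56, range 94.4 to 200). Aldoc ranged from 789 ± 56.8 CPM in olfactory bulb (n = 58) to 3270 ± 391 CPM in medulla (n = 58), with pons (2377 ± 335, n = 51) and cerebellum (2119 ± 439, n = 58) next below medulla. Steps larger than the spread separated medulla from pons, cerebellum from thalamus, and corpus callosum from olfactory bulb. Aldh1l1 had the narrowest span, 1.65-fold, from 45.3 ± 7.84 CPM in caudate putamen (n = 58) to 74.4 ± 7.95 CPM in cerebellum (n = 58), with no step beyond the spread.

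Corpus callosum, cerebellum and thalamus were each tested against motor cortex with edgeR's quasi-likelihood test and Benjamini-Hochberg adjustment over all genes. A gene was called at an adjusted p below 0.05. Nearly all genes of the genome differ between such regions, so the sizes matter more than the calls. For cerebellum, 90.9% of all genes tested were called, and so were all 10 astrocyte genes, 8 higher and 2 lower. The largest differences were those of Aqp4, with a log2 difference of 2.14 ± 0.029 (SE, 4.40-fold, adjusted p = 2.5e-101), and Slc1a2, with -2.05 ± 0.02 (0.242-fold, adjusted p = 1.8e-116). Slc1a3 was higher by 1.54 ± 0.02 log2 units (adjusted p = 5e-104 by edgeR) and Slc4a4 by 1.28 ± 0.025, whereas Glul was lower (log2 difference -1.32 ± 0.024). The smallest difference was that of Gjb6 (0.16 ± 0.034 log2 units, adjusted p = 9.2e-06 by edgeR).

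In corpus callosum, the largest commissural white matter tract, 87.7% of all genes and all 10 astrocyte genes differed from motor cortex, 6 higher and 4 lower. Gjb6 was 0.485-fold (log2 difference -1.04 ± 0.037, adjusted p = 1.6e-52 by edgeR), the largest difference of the 10. Slc4a4 (0.63 ± 0.032), Aqp4 (0.46 ± 0.04) and Mlc1 (0.35 ± 0.022) were higher by more than Slc1a3 (0.16 ± 0.021), Gja1 (0.15 ± 0.023) and Glul (0.11 ± 0.019). Aldoc (-0.22 ± 0.021), Slc1a2 (-0.21 ± 0.022) and Aldh1l1 (-0.08 ± 0.028) were lower, the last no longer called in males alone. Corpus callosum libraries also held striatal RNA. Against motor cortex, caudate putamen had less Gjb6 (40.7 against 95.9 CPM) and more Slc4a4 (408 against 200 CPM). Gja1 and Glul, higher in corpus callosum, were lower in caudate putamen than in motor cortex. The part of striatal RNA in these differences was not tested. In thalamus 85.6% of all genes were called, with 7 of the 10 genes higher and 2 lower than motor cortex. Slc4a4 (1.31 ± 0.02 log2 units) and Aqp4 (1.03 ± 0.043) led the genes that were higher, and Slc1a2 was 0.574-fold (log2 difference -0.80 ± 0.026). Slc1a3 was the gene not called there, with a difference of 0.03 log2 units and a 95% interval of -0.05 to 0.12 (adjusted p = 0.459 by edgeR). With library totals alone in place of TMM scaling that difference became 0.10 and was called.

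The 10 genes did not vary as a block, either across regions or between mice. Over the 15 region means, Pearson's r of the 45 pairs had a median of 0.12 and ranged from -0.71 to 0.75, and 21 pairs were below 0. After region, age and sex were fitted out, r over the 847 libraries had a median of 0.29 and ranged from -0.17 (Slc1a2 and Mlc1) to 0.56 (Glul and Aldoc). These values describe the libraries and carry no test, since all genes of a library share its depth and its tissue composition. Slc1a2 stood apart, with a median r of -0.07 with the other genes, and Slc1a3 had 0.11, while the other 8 lay between 0.27 and 0.37. Without the 16 libraries that stood apart the median over pairs was 0.34 (n = 831), and the highest pair was Gja1 and Mlc1 at 0.57.

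The genes nearest to each member between mice of a region included other astrocyte genes for some members and not for others. Over the 847 libraries, after region, age and sex were fitted out, the nearest of 11955 genes to Aqp4 was Gfap (r = 0.67). Gfap is the intermediate filament of reactive astrocytes, and Cd9 (0.66) and Padi2 (0.65) followed closely. The nearest to Mlc1 was Apoe (0.72), the lipid carrier. Aldoc was nearest to Acsbg1 (0.71), followed by Map1lc3b (0.66) and Slc25a4 (0.63). Aldh1l1 was nearest to Ndrg2 (0.56), and Gjb6 to Selenop and Etnppl (both 0.61). For Slc1a3 these were Gpm6a (0.71) and Gldc (0.66), for Slc4a4 Hcn2 (0.60), and for Slc1a2 the mitochondrial gene mt-Co1 (0.68) and Purb (0.66). Glul was nearest to Teddm2 (0.79), the gene with which it shares exonic sequence. Gja1 was nearest to Nadk2 (0.78), which is among the 97 genes that were low together with it in 4 libraries. Over the 15 region means the nearest genes were others, for example Chn1 for Slc1a2 (r = 0.95) and Pla2g7 for Aqp4 (0.93).

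Change with age was estimated in each region as a slope over the 7 ages beside sex, and is given as the log2 change over the 25 months from 3 to 28 months. Of the 150 pairs of gene and region, 26 were called by edgeR (17.3%), 16 rising (10.7%) and 10 falling (6.67%). Over all genes and regions 10.6% of the tests were called, 5.88% rising and 4.67% falling. Called changes were small, between 0.10 and 0.47 log2 units in size, beside regional differences of up to several log2 units. The median change over the 150 pairs was 0.0 log2 units. Corpus callosum held 7 of the called pairs, olfactory bulb 4, and motor cortex and subventricular zone 3 each, whereas entorhinal cortex, anterior hippocampus, hypothalamus and pons held none. In those 4 regions 0.0964%, 9.38%, 6.88% and 4.69% of all genes were called, in that order.

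**Figure D3:**
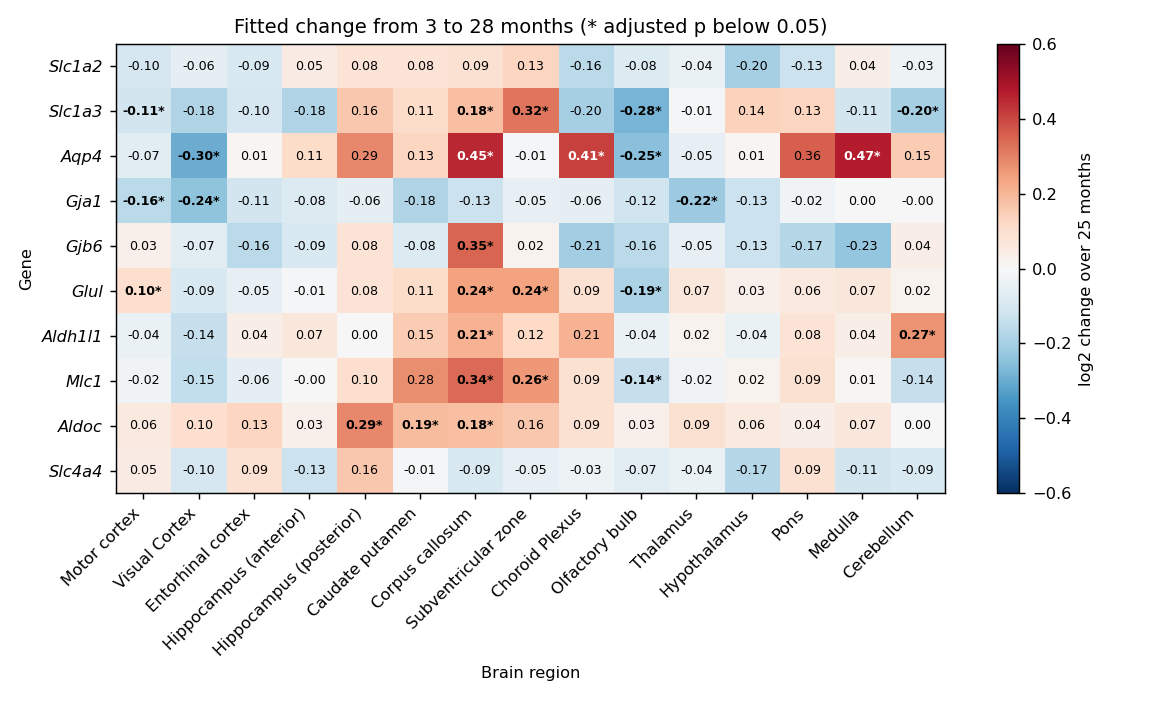
Fitted log2 change over 25 months of each gene (rows) in each region (columns); red is a rise, blue a fall, and a star marks an adjusted p below 0.05 by edgeR. The corpus callosum column holds 7 starred rises, and the olfactory bulb column 4 starred falls.

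In corpus callosum 7 of the 10 genes rose with age, against 9.04% of all genes tested there, and none fell. The largest rise was that of Aqp4. At 3 months its libraries ran from 92.0 to 135 CPM with a median of 104 (n = 10), and the 3 libraries of 28 months had 122, 179 and 191 CPM. The higher values were those of the oldest mice: the medians were 91.5 CPM at 12 months, 103 at 18, 109 at 21 and 138 at 26 months. Over 25 months Aqp4 rose by 0.45 ± 0.11 log2 units (SE, 36.2%, adjusted p = 0.00232 by edgeR). The lowest of the oldest libraries still lay within the range of the young.

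Mlc1 rose more evenly. It ran from 156 to 203 CPM at 3 months with a median of 170 (n = 10), and its medians were 192 CPM at 15 months and 199 at 21 months. The 3 libraries of 28 months had 203, 253 and 254 CPM, at or above the highest young library. The rise was 0.34 ± 0.06 log2 units (adjusted p = 1.1e-05 by edgeR), the smallest adjusted p of the 10 genes in this region. Glul, with 473 to 571 CPM at 3 months (median 530, n = 10) and 540 to 617 CPM at 28 months (n = 3), rose by 0.24 ± 0.06 (adjusted p = 0.00218 by edgeR), with overlapping ranges.

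Gjb6, the connexin that was low in the corpus callosum libraries, ran from 33.8 to 51.1 CPM at 3 months (median 40.0, n = 10). The oldest libraries had 50.2, 51.7 and 55.1 CPM. They overlapped the young group at its upper end, and the change was 0.35 ± 0.11 log2 units (adjusted p = 0.0162 by edgeR). Slc1a3 went from a median of 490 CPM (443 to 644, n = 10) to 560, 612 and 636 CPM, within the young range, a rise of 0.18 ± 0.06 (adjusted p = 0.02 by edgeR). Its 3-month range was set at the top by 1 library (mouse 53). Aldh1l1 rose by 0.21 ± 0.07 and Aldoc by 0.18 ± 0.07 (adjusted p = 0.043 and 0.04 by edgeR). Slc1a2 (0.09), Slc4a4 (-0.09) and the other connexin gene Gja1 (-0.13) were not called.

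How many of these rises were called depended on which mice were used. By number, mice 16 to 56 were 3, 15, 18 or 21 months old, mice 1 to 15 were 12 or 26 months old, and mice 57 to 59 were the oldest, so age is partly confounded with mouse number. Within mice 16 to 56, where 6.78% of all tests over the regions were called, 10 of the 26 pairs kept their call. All 26 kept their direction. There 2 of the 7 rises in corpus callosum were called, Glul (0.25) and Mlc1 (0.24), and Aqp4 changed by 0.05 and Slc1a3 by 0.07 log2 units. In males alone 4 were called: Aqp4 (0.51), Mlc1 (0.32), Slc1a3 (0.25) and Glul (0.24). Between 21 and 3 months alone, Glul (0.17) and Mlc1 (0.17) were called. These 2 values are differences between those ages. Age changes for mice 16 to 56, here and below, are slopes over 3 to 21 months scaled to 25 months. The sizes from the 2 comparisons are therefore not on the same scale. Within mice 1 to 15, the 5 males of 12 months had 81.1, 82.0, 82.2, 91.5 and 106 CPM of Aqp4, and the 4 male libraries of 26 months had 104, 136, 141 and 162 CPM. Of the older libraries 3 lay above all 5 younger ones, and the lowest overlapped them. For 28 months, which only mice 57 to 59 supply, mouse number and age cannot be told apart.

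Other cells and other astrocyte genes moved in the same tract. Of the 12 reactive astrocyte genes 7 rose and 1 fell in corpus callosum, Gfap by 2.39 and Serpina3n by 3.24 log2 units. Of the 20 other astrocyte markers 6 rose and none fell, with a median change of 0.13 over the 20. Of the 8 microglia genes 7 rose, and of the 8 mature oligodendrocyte genes 2 rose, Mbp (0.28) and Mobp (0.27), with the oligodendrocyte sum at 17136 to 24735 CPM at 3 months and 22524 to 30844 CPM at 28 months. With the mean of the 20 astrocyte markers as a covariate none of the 7 rises was called, and the estimates lay between -0.02 (Aldh1l1) and 0.19 (Gjb6). With the oligodendrocyte mean as a covariate 6 of the 7 were called, and all 7 were called with the choroid plexus list, with the caudate putamen markers Drd1, Drd2 and Ppp1r1b, or without the 1 corpus callosum library nearest to motor cortex. Markers of other neighbouring tissue did change with age in these libraries: the thalamus marker Prkcd rose by 1.44 and the hippocampus marker Prox1 by 0.45 log2 units (adjusted p = 0.00552 and 0.000599 by edgeR), and the subventricular zone markers Dlx2 (-0.90) and Dcx (-0.39) fell (adjusted p = 0.000344 and 0.0209). The part of these changes in the 7 rises was not tested.

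**Figure D4:**
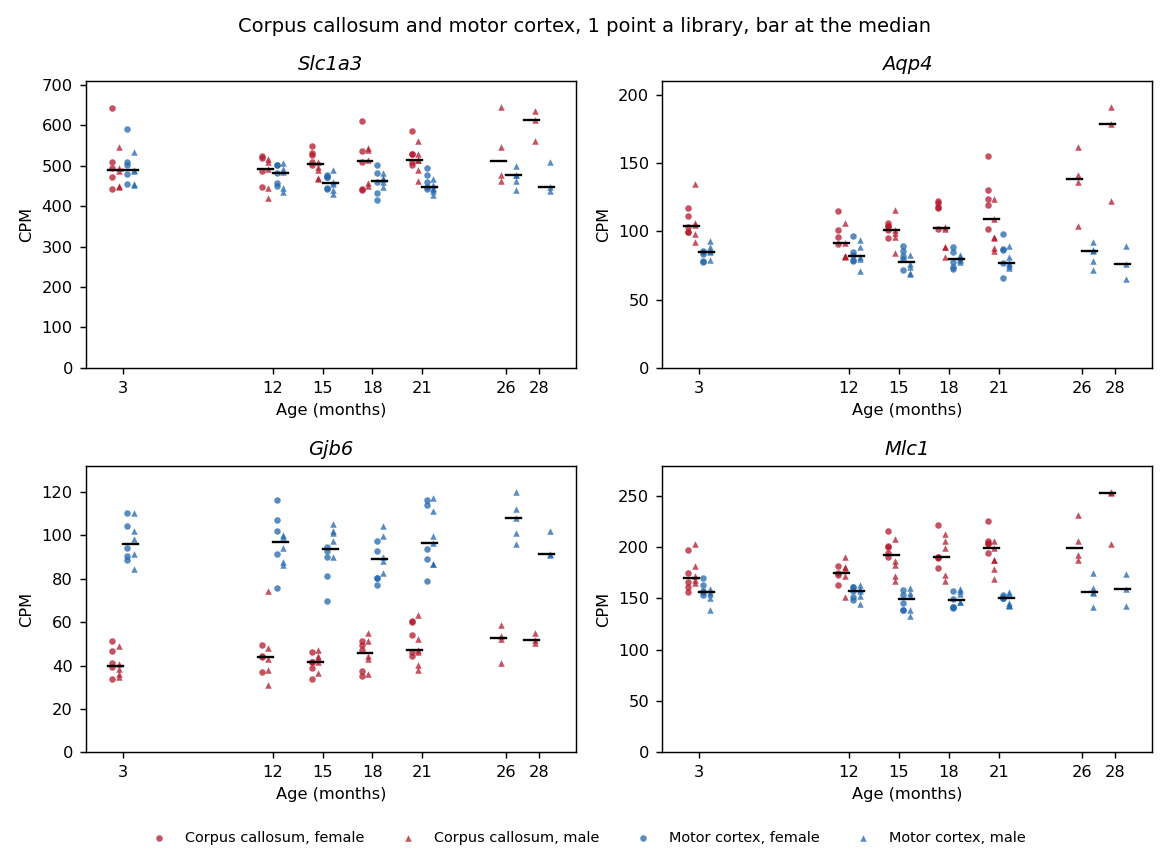
CPM of Slc1a3, Aqp4, Gjb6 and Mlc1 by age in months in corpus callosum (red) and motor cortex (blue), with females as circles, males as triangles, and a bar at the median of each age. The red medians of Aqp4 and Mlc1 are highest at 28 months, at 179 and 253 CPM, while the blue points of both reach at most 98.0 and 175 CPM.

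The slopes of corpus callosum and motor cortex were compared in 1 fit of both regions. The difference was called for 3 of the 10 genes, against 3.05% of all genes. These were Mlc1, with 0.37 ± 0.07 log2 units over 25 months (95% interval 0.23 to 0.50, adjusted p = 0.00021 by edgeR), Slc1a3, with 0.29 ± 0.068 (0.16 to 0.42, adjusted p = 0.00412), and Aqp4, with 0.53 ± 0.13 (0.28 to 0.78, adjusted p = 0.00569). Gjb6 had a difference of 0.32 ± 0.13 that was not called (adjusted p = 0.176 by edgeR), but it was called with the mouse as a block (0.35, adjusted p = 0.0114). The intervals of Slc1a2 (0.05 to 0.34), Aldh1l1 (0.06 to 0.43) and Glul (0.01 to 0.27) lay above 0 without passing the adjusted threshold. Those of Gja1 (-0.13 to 0.19), Aldoc (-0.02 to 0.27) and Slc4a4 (-0.36 to 0.08) included it. In males alone Slc1a3 was the 1 gene called.

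In olfactory bulb 4 genes fell and none rose, where 8.29% of all genes fell. Slc1a3 fell most. Its libraries ran from 612 to 881 CPM at 3 months with a median of 793 (n = 10), and those of 28 months had 649, 674 and 684 CPM. The oldest libraries lay inside the young range because of 1 low library at 3 months (mouse 49), and the other 9 young libraries had 770 CPM or more. Over 25 months Slc1a3 decreased by 0.28 ± 0.04 log2 units (slope test by edgeR, adjusted p = 1.82e-07). The medians were 727 CPM at 12 months, 699 at 15 and 670 at both 18 and 21 months, so most of the decrease was present by 18 months.

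Aqp4 fell in olfactory bulb, opposite to its course in corpus callosum. It ran from 220 to 266 CPM at 3 months (median 227, n = 10) and had 179, 199 and 208 CPM at 28 months, with no overlap. The medians from 12 to 26 months all lay between 196 and 209 CPM, so the lower level was present at 12 months. It decreased by 0.25 ± 0.06 log2 units over the range (adjusted p = 0.000944 by edgeR). Glul, with 576 to 715 CPM at 3 months (median 666, n = 10) and 578, 594 and 678 CPM at 28 months, decreased by 0.19 ± 0.05 (adjusted p = 0.00372 by edgeR), and Mlc1, with 170 to 234 CPM (median 222, n = 10) and 189, 203 and 207 CPM, decreased by 0.14 ± 0.04 (adjusted p = 0.00595 by edgeR). Both overlapped between the youngest and oldest mice.

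All 4 falls of olfactory bulb were called within mice 16 to 56 and in males alone, and 3 of them, without Mlc1, between 21 and 3 months. With the astrocyte marker mean as a covariate Slc1a3 (-0.21) and Aqp4 (-0.22) were called and Glul (-0.12) and Mlc1 (-0.07) were not. Of the 20 other astrocyte markers 6 fell and 1 rose here, and their sum had a median of 7210 CPM at 3 months and 6602 CPM at 28 months. Genes of meningeal and perivascular fibroblasts moved too, with 3 of 8 falling (Col3a1 by a log2 change of -1.56) and a summed level of 170 to 668 CPM at 3 months and 176 to 251 CPM at 28 months. Neuron genes rose in 4 of 8 cases and fell in 1. The part of these changes in the falls of the 4 genes was not tested.

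**Figure D5:**
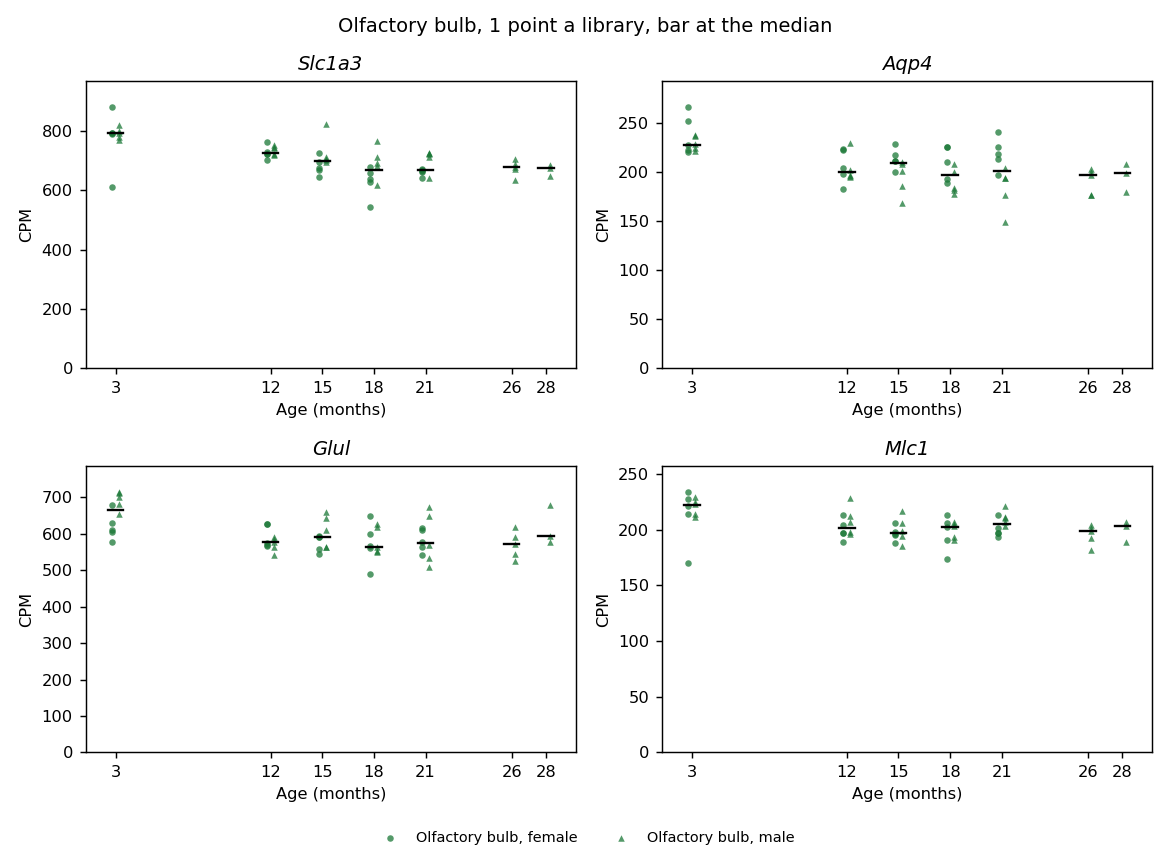
CPM of Slc1a3, Aqp4, Glul and Mlc1 by age in months in olfactory bulb, with females as circles, males as triangles, and a bar at the median of each age. For Aqp4 every 3-month library lies at or above 220 CPM, and the medians of the later ages lie between 196 and 209 CPM.

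In the subventricular zone 3 genes rose and none fell, where 4.50% of all genes rose. Slc1a3, a gene also made by the neural stem cells of this zone, ran from 662 to 999 CPM at 3 months (median 834, n = 10) and had 906, 1007 and 1099 CPM at 28 months. It rose by 0.32 ± 0.09 log2 units (adjusted p = 0.0175 by edgeR), with the lowest old library inside the young range. Mlc1 rose by 0.26 ± 0.08 and Glul by 0.24 ± 0.07 (adjusted p = 0.0224 and 0.0137 by edgeR). All 3 were called in males alone, and none within mice 16 to 56 (changes of 0.30, 0.22 and 0.21) or with the astrocyte marker mean as a covariate (0.08, 0.08 and 0.13).

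Gja1 fell in each of the 3 regions where it was called. None of these calls was kept in all 3 restrictions of age or sex: males alone, mice 16 to 56, and 21 against 3 months. The call was the same in 21 of 23 settings in thalamus, 20 in visual cortex and 19 in motor cortex, and the direction in all 23. In thalamus it ran from 255 to 309 CPM at 3 months (median 275, n = 10) and had 237, 240 and 252 CPM at 28 months, with no overlap. The change was -0.22 ± 0.05 log2 units (adjusted p = 0.00152 by edgeR), in a region where 1.44% of all genes fell. In visual cortex it went from a median of 182 CPM (158 to 215, n = 10) to 155, 159 and 172 CPM, a change of -0.24 ± 0.07 (adjusted p = 0.0124 by edgeR), where 4.47% of all genes fell. In motor cortex it went from a median of 163 CPM (151 to 171, n = 10) to 147, 149 and 172 CPM, a change of -0.16 ± 0.05 (adjusted p = 0.0331 by edgeR), where 8.36% fell. Its estimate was below 0 in 14 of the 15 regions, though only by 0.143% in cerebellum. An F test over the regions did not find its slope to differ among them (adjusted p = 0.901 by edgeR). The regions come from the same mice, so these signs are not independent, and a change over all regions was not tested.

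Aqp4 was called in 3 further regions. In choroid plexus libraries it rose by 0.41 ± 0.11 log2 units, from a median of 188 CPM (144 to 250, n = 10) to 206, 227 and 267 CPM (adjusted p = 0.00548 by edgeR), where 11.1% of all genes rose. The oligodendrocyte sum of those libraries had a median of 9890 CPM at 3 months and 16992 CPM at 28 months, and with its mean as a covariate the change of Aqp4 was 0.14 and not called. In medulla it rose by 0.47 ± 0.14, from a median of 261 CPM (204 to 400, n = 10) to 217, 414 and 453 CPM (adjusted p = 0.0193 by edgeR), where 6.33% of all genes rose. In visual cortex it fell, from a median of 101 CPM (80.1 to 139, n = 10) to 73.7, 75.4 and 90.8 CPM (log2 change -0.30 ± 0.09, adjusted p = 0.0265 by edgeR). Within mice 16 to 56 none of these 3 was called, with changes of 0.36, 0.44 and -0.25.

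The remaining calls were single ones. In cerebellum 9.53% of all genes rose and 6.97% fell. In cerebellum Aldh1l1 rose from a median of 65.0 CPM (61.0 to 74.7, n = 10) to 74.7, 75.3 and 77.3 CPM, a change of 0.27 ± 0.06 log2 units (adjusted p = 0.000509 by edgeR), with the oldest libraries at or above the highest young one. Slc1a3 fell there, from a median of 1477 CPM (1261 to 1584, n = 10) to 1187, 1210 and 1232 CPM without overlap, a change of -0.20 ± 0.06 (adjusted p = 0.0083 by edgeR). Aldoc rose in posterior hippocampus by 0.29 ± 0.06, from a median of 1168 CPM (1055 to 1348, n = 10) to 1258, 1268 and 1778 CPM (adjusted p = 0.00186 by edgeR), and in caudate putamen by 0.19 ± 0.06 (adjusted p = 0.0127 by edgeR), where 3.89% and 7.32% of all genes rose. Its estimate was positive in all 15 regions, though only by 0.259% in cerebellum. The same mice supplied the regions, and a change over all of them was not tested. In motor cortex Slc1a3 fell (log2 change -0.11 ± 0.04) and Glul rose (0.10 ± 0.04), with adjusted p of 0.0412 and 0.0454 by edgeR, in a region where 8.25% of all genes rose. Both motor cortex calls were lost when single mice were left out, 5 of 12 mice for each. Of the calls in this paragraph, only that of Aldh1l1 was kept in all 3 restrictions of age or sex. Aldoc kept its call in 23 of 24 settings in posterior hippocampus and 20 of 23 in caudate putamen. Slc1a3 in cerebellum kept its call in 21 of 23.

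The glutamate transporter gene Slc1a2 was called in no region. Its estimates ran from -0.20 log2 units in hypothalamus to 0.13 in the subventricular zone. In motor cortex the 3 oldest libraries had 1219, 1234 and 1246 CPM, all below the 1302 to 1477 CPM of the 10 youngest, but the slope over all ages was -0.10 and not called. Slc4a4 was also called nowhere, with estimates from -0.17 in hypothalamus to 0.16 in posterior hippocampus. Its 3 oldest medulla libraries (253, 280 and 281 CPM) lay below the youngest (296 to 397 CPM, n = 10), with a slope of -0.11 that was not called. The most negative estimate without a call was -0.23 for Gjb6 in medulla, where 98.0, 106 and 111 CPM at 28 months lay below 129 to 216 CPM at 3 months (n = 10). Gaps of this kind were not tested, and the share of all genes with one is not given here. The 28-month libraries are of males alone (mice 57 to 59), whereas those of 3 months are of both sexes.

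Whether a slope depended on the region was tested with an F test over the 15 regions, which called 19.9% of all genes and 4 of the 10. These were Mlc1 (adjusted p = 1.1e-05 by edgeR), Aqp4 (0.00021), Slc1a3 (0.00075) and Glul (0.03). These are the 4 genes that rose in 1 or more regions and fell in another. Gja1 (0.901), Aldoc (0.615), Slc4a4 (0.46), Gjb6 (0.185), Slc1a2 (0.0981) and Aldh1l1 (0.0751) were not called. Within mice 16 to 56 Slc1a3 (adjusted p = 0.00123 by edgeR) and Aqp4 (0.00646) were called and Mlc1 (0.118) and Glul (0.144) were not. There 2451 of 16125 genes were called. Without the 16 libraries that stood apart Aldh1l1 was called as well (adjusted p = 0.0425 by edgeR).

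Males and females were set against each other over the ages from 3 to 21 months, where either sex was sampled. Of the 150 pairs 6 differed in level, where 2.70% of all tests were called. Gja1 was higher in males in thalamus (0.13 ± 0.03 log2 units), posterior hippocampus (0.12 ± 0.03) and motor cortex (0.10 ± 0.029), with adjusted p of 0.0333, 0.0278 and 0.0322 by edgeR. Slc4a4 was higher in males in hypothalamus (0.18 ± 0.041, adjusted p = 0.0063) and medulla (0.16 ± 0.036, adjusted p = 0.000881 by edgeR). Aqp4 was higher in females in olfactory bulb (male minus female -0.13 ± 0.033, adjusted p = 0.0297 by edgeR). With the library total and the number of genes detected as covariates, 3 of these were called: Slc4a4 in medulla and Gja1 in thalamus and motor cortex. Within mice 16 to 56, 4 were called, and Gja1 in thalamus (0.11, adjusted p = 0.197 by edgeR) and in posterior hippocampus (0.10, adjusted p = 0.135) was not. Slc4a4 in medulla and Gja1 in motor cortex were called in both. No pair was called by edgeR for a sex difference in age slope, where 0.0756% of all tests were called, and 11 of the 150 had an unadjusted p below 0.05.

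The partners of these genes were called with age in shares of 6.19% to 16.8% of their pairs, by list, beside 10.6% of all tests (5.88% rising and 4.67% falling). Single partners changed by more than any of the 10 genes. Of the glutamate transporter family and glutamine cycle, 14 genes in 210 pairs, 10 pairs rose and 7 fell (8.10% called), led by Slc1a5, a neutral amino acid transporter that rose in 3 regions and by 1.57 log2 units in corpus callosum. Slc7a11 also rose in 3 regions, and Slc1a1 fell in 3. Of the gap junction partners (10 genes, 150 pairs) 12 rose and 3 fell (10.0% called), of which 7 rises were Gjb1, the connexin 32 gene of oligodendrocytes. Gjc3 rose in 2 regions and Gjd2 fell in 2. Of the water, potassium and volume partners (14 genes, 203 pairs) 11 rose and 12 fell (11.3% called). Among them Dag1, the dystroglycan that anchors the end foot, fell in 4 regions and Kcnj10, the potassium channel Kir4.1, in 3. Trpv4, of the same list, rose in 2. Of the acid-base transport genes (10 genes, 143 pairs) 12 rose and 12 fell (16.8% called), 9 of the falls being those of Car4, a carbonic anhydrase, with a mean change of -0.39 over regions. Of the glycolysis, lactate and folate partners (14 genes, 210 pairs) 9 rose and 4 fell (6.19% called), including Aldh1l2, the mitochondrial relative of Aldh1l1, which rose in 5 regions and by 1.11 log2 units in corpus callosum. Ldha fell in 3 regions and Shmt1 rose in 1.

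Beside these, 20 other astrocyte markers were called in 16.0% of 300 pairs, 23 rising and 25 falling, close to the 17.3% of the 10 genes. Sox9, the astrocyte transcription factor, rose in 7 regions, and S1pr1, a lipid receptor, fell in 7. Prdx6 rose in 4 and fell in 1. The 12 reactive astrocyte genes were called in 44.7% of 170 pairs, 65 rising and 11 falling, all 11 falls being Hspb1. The 8 microglia genes were called in 70.0% of 120 pairs, 82 rising and 2 falling. The median change over all genes and regions was -0.0025 log2 units.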

How the data were processed

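RNA from homogenised tissue was converted to cDNA by Smart-Seq2 and tagmented with Nextera XT, unstranded, per the labels. The deposited values are raw read counts per gene. Trim Galore 0.3.7, STAR 2.5.3a, DESeq2 and GRCm38 are named in the submitters' processing notes, and the counter is not given in the sources used here. Counts were tested with edgeR 4.0.16 (R 4.3.3, TMM factors, quasi-likelihood test, Benjamini-Hochberg adjustment within each comparison over all genes passing filterByExpr), with age in months and sex in the model. The fits were tested on simulated data. The age slopes simulated within a region were steeper than those of the called pairs, so recovery at the called sizes was not tested. Alternatives included DESeq2 1.42.0, limma 3.58.1, other scalings, no filter, covariates, subsets of mice and leaving out mice. Libraries with the same number come from the same mouse, so a block on the mouse was possible. Residuals of both regions correlated over mice with a median r of 0.20 for corpus callosum and motor cortex (57 mice), 0.14 for cerebellum and motor cortex (58 mice) and 0.04 for thalamus and motor cortex (59 mice). Members and gene lists were chosen with earlier results of these data known. The genes named from the lists, apart from region markers, were taken from those called with age in at least 8 regions in 1 direction, or otherwise the 3 called in most regions. Not every gene so selected is named. Mbp and Mobp are among the named genes of their list.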

Additional observations from a re-analysis of the deposited data

Results flagged for a closer look

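In 4 of the 26 groups of libraries examined, 1 library lay far from the rest of its group by Dixon's criterion at the 95% level, and chance marks about 1 group in 20. A group here is 1 gene in 1 region at 1 age, so groups can share libraries and are not independent. In olfactory bulb at 3 months (n = 10), the library of mouse 49 was the lowest for Slc1a3, at 612 CPM with the next at 770 CPM, and for Mlc1, at 170 CPM with the next at 211 CPM. In the subventricular zone at 3 months, the library of mouse 29 had 198 CPM of Mlc1 and the next had 260 CPM. In corpus callosum at 3 months, the library of mouse 53 had 644 CPM of Slc1a3 and the next below had 546 CPM.

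Slopes with age differed among the 15 regions by edgeR's F test for Mlc1 (adjusted p = 1.1e-05), Aqp4 (0.00021), Slc1a3 (0.00075) and Glul (0.03). The slopes of corpus callosum and motor cortex differed, in log2 units over 25 months, by 0.53 for Aqp4, 0.37 for Mlc1 and 0.29 for Slc1a3.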

How the results depend on the processing

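The number of rises with age depended on the mice used. It was 16 of 150 with all mice, 9 in males alone, 4 within mice 16 to 56 and 4 between 21 and 3 months. All 26 called pairs kept their direction in each of these restrictions. Calls over all genes were fewer too: 6.78% of all tests within mice 16 to 56 against 10.6% with all mice. The shares of all genes in males alone and between 21 and 3 months are not given here. Leaving out 1 of 12 mice at a time gave 15 to 18 rises and 9 to 12 falls, and 21 of the 26 called pairs were called in each of these fits. The 5 others were Aldh1l1 and Aldoc in corpus callosum and Gja1, Glul and Slc1a3 in motor cortex. The count of members whose slope differed between corpus callosum and motor cortex was 3, and 1 in males alone. Slopes differed among regions for 4 members (19.9% of all genes), and for 2 within mice 16 to 56 (2451 of 16125 genes). Sex differences in level numbered 6, and 3 with depth covariates. The sign changed for Aldh1l1 in corpus callosum with the astrocyte covariate (-0.02) and for the slope difference of Gja1 in males alone (-0.04). With the mouse as a replicate block, Gjb6 gained a call for the slope difference between corpus callosum and motor cortex (0.35), and the block changed no other call of a member. Without the 16 libraries that stood apart, chosen after seeing the data, 17 pairs rose and 10 fell. The precision of the oldest age is limited by its 3 mice, all males, of which hypothalamus has 2 libraries.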
